A study of Mus musculus with 4 samples.

Results

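The cytosolic ribosomal protein genes were examined in the mouse hippocampus after ischemia, in FBN-ARO-KO+GCI against FLOX+GCI. Of the 22609 gene symbols counted, 82 had a cytosolic ribosomal protein name (Rpl or Rps followed by a number, or Rplp0 to Rplp2, with a closing a, x, l or l1 allowed), 51 for the large and 31 for the small subunit. FBN-ARO-KO mice carry floxed Cyp19a1, the gene for aromatase, together with a Cre recombinase driven by the CaMKIIα promoter, which is active in forebrain excitatory neurons; the FLOX mice are their controls. All mice were 3 to 5 month old females, ovariectomized 1 week before surgery, and all underwent global cerebral ischemia (GCI) by 20 min of occlusion of both common carotid arteries followed by 24 h of reperfusion, so no group without ischemia was compared. RNA-Seq of 50 nt single-end reads gave 2 libraries per genotype. It is not stated whether the libraries of a genotype are separate mice, and the design text says that samples were run in duplicate, so the p-values measure only the spread between these libraries, which may be technical.

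Each library held between 24333396 and 33076795 counts on genes. Cyp19a1 itself had from 1 to 4 counts in every library, which is too few to check the genotype. All 10 markers of hippocampal neurons were counted, 4 with lower and 6 with higher fitted levels in FBN-ARO-KO+GCI. Of 8 markers each, microglia had 5 lower and 3 higher, oligodendrocytes 3 and 5, and astrocytes 2 and 6. Only 1 of 5 erythroid markers was tested, and it was lower. The 8 endothelial markers were all lower, against 51.3% of all genes tested. Their summed levels were 287 and 208 CPM (counts scaled to the library's depth) in FLOX+GCI against 240 and 173 CPM in FBN-ARO-KO+GCI, so the genotypes overlapped. The 8 choroid plexus markers summed to 68.3 and 54.4 CPM in FLOX+GCI against 47.2 and 53.1 CPM in FBN-ARO-KO+GCI. Most of these markers did not share the lower sum. Only 6 were tested, of which 2 were lower and 4 higher in FBN-ARO-KO+GCI, with a median log2 fold change of 0.05. The part of these cells in the results was not tested, and in whole tissue fewer cells of a type and less RNA per cell cannot be told apart.

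Cytosolic ribosomes are built from a small subunit, which reads the mRNA, and a large subunit, which forms the peptide bonds, and each ribosomal protein is usually present once per ribosome. The exceptions are Rplp1 and Rplp2, which sit in pairs on Rplp0 and form the stalk that recruits elongation factors. The mRNAs of these proteins begin with a run of pyrimidines (the TOP motif), through which mTOR signaling sets their translation. In mammalian genomes they have left many processed pseudogenes, intronless copies of the mRNA, and a short read that fits both the gene and a copy equally well is not counted by a counter that keeps only uniquely aligned reads.

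Reads of ribosomal protein mRNAs often fitted more than 1 place in the genome. In the mouse genome NCBIM37 (mm9), 78 of the 81 members with an annotated mRNA had at least 1 exact copy of a 50-base coding window elsewhere, at 1162 places in all, with a median of 9 places per gene and 128 for Rpl7a, a large subunit protein. An annotated pseudogene lay at 521 of these places. In 29 members no coding window was free of an exact copy, and in 63 members none was free of a copy with at most 2 mismatches. Rpl41 had no entry in the annotation used. Windows nearest the middle of the coding sequence are given for some members as examples. They were read from NCBIM37, 5′ to 3′ on the strand of the gene, each inside 1 coding exon, and capitals mark the bases that differ from the closest other place found in the genome. The first 3 genes were among the most abundant.
Rpl8, chr15:76735330-76735379, plus strand: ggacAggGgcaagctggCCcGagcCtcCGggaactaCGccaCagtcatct
Rpl4, chr9:64024807-64024856, plus strand: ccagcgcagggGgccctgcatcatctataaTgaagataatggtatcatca
Rps3, chr7:106628527-106628576, minus strand: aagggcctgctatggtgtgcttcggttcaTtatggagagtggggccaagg
The next 4 windows had no capitals because an exact copy lay elsewhere, and their genes had few or no counts.
Rpl26, chr11:68716707-68716756, plus strand: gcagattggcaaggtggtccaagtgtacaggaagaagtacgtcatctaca
Rps23, chr13:91063958-91064007, plus strand: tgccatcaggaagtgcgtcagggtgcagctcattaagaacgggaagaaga
Rps27, chr3:90016922-90016971, minus strand: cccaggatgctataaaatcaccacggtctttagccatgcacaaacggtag
Rps6, chr4:86501867-86501916, minus strand: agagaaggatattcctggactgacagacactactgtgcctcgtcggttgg
The window of Rpl8 differed from its closest other place at 11 of 50 bases, those of Rpl4 and Rps3 at 2 and 1. The windows of Rpl26 and Rps23 each recurred exactly at 3 other places, that of Rps27 at 2 and that of Rps6 at 1. Counts did not always go with the window. That of Rplp1, with a mean count of 4687, also recurred exactly at 3 other places. That of Rpl3l differed at 19 bases, with a mean count of 4.

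The counts of the members partly followed this feature of their sequence. The 29 members with no unique coding window had a median mean count of 23.0 over the 4 libraries, and 22 of them were under 50. The 27 members with a unique share above 0 and under 20% had a median of 361, the 10 members between 20% and 50% a median of 1176, and the 15 members with at least 50% a median of 2444 counts. Across the 81 genes, Spearman's rho between the mean count and the share of coding windows without an exact copy was 0.54. The mean count was not divided by mRNA length. For CPM per kb of mRNA, rho was 0.39 with the share of all windows without an exact copy. With the share free of copies with at most 2 mismatches it was 0.12. These values are a description over genes that share the same libraries. Rpl27a and Rpl15, both of the large subunit and picked out after their values were seen, had no unique coding window but mean counts of 1226.5 and 1612. Over the whole mRNA, 57.9% of the windows of Rpl27a and 11.4% of those of Rpl15 were unique, so reads outside the coding part could be counted. Division by the length of unique sequence did not even out the levels, since the SD of the log2 level per kb was 3.29 over 69 members with the whole mRNA as length and 3.22 with only the unique windows.

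**Figure D1:**
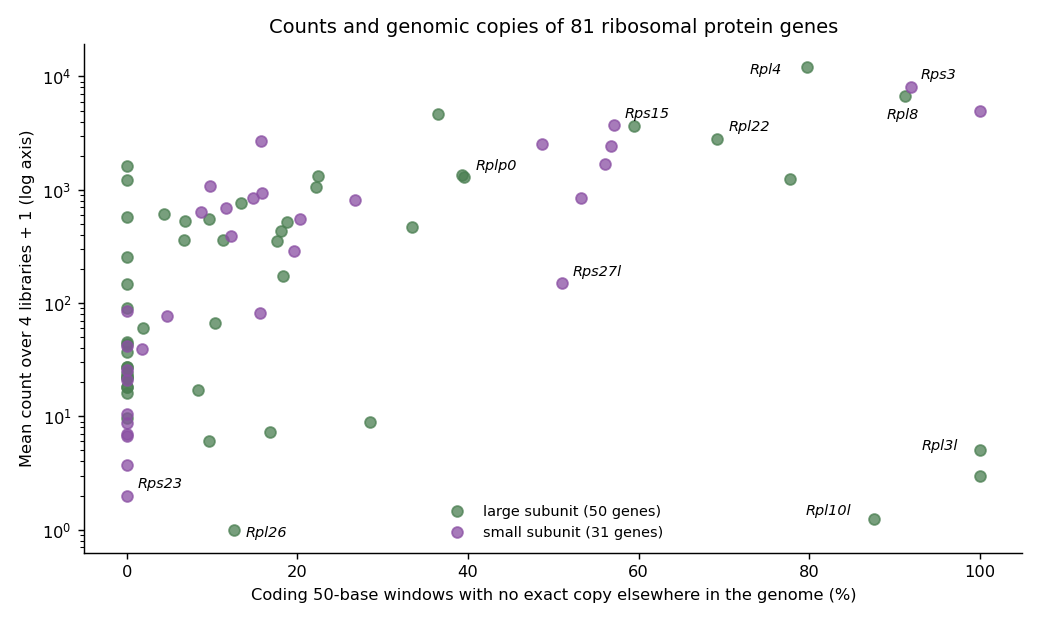
Mean count over the 4 libraries plus 1 (y axis, log scale) against the share of coding 50-base windows that occur nowhere else in the genome (x axis, percent) for 81 members, green for the large and purple for the small subunit. Members at 0% lie mostly under 50 counts, and most members at or above 50% lie over 1000 counts (10 of 15), with Rpl3l, Rpl39l and Rpl10l at the lower right.

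With such reads left out of the counts, the level of a single ribosomal protein gene in these files was not a measure of its mRNA relative to other members, and whether other steps lowered a member's counts was not tested. Rpl26, of the large subunit, had 0 counts in all 4 libraries, which allows up to 0.0907 to 0.123 CPM per library by a limit of 3 counts that covers counting error only. Rps23, of the small subunit, had 0 and 1 counts in FLOX+GCI against 3 and 0 counts in FBN-ARO-KO+GCI. In all, 13 members did not pass the filter on low counts, none with more than 15 counts in any library. Rpl3l, Rpl10l, Rpl26, Rpl29, Rpl30, Rpl34, Rpl39l, Rps13, Rps16, Rps23, Rps28 and Rps29 were among them. Rps27 and Rps12 had the smallest unique shares over the whole mRNA, 0.338% and 1.92%. Their levels were 0.678 and 0.933 CPM in FLOX+GCI against 0.754 and 0.512 CPM in FBN-ARO-KO+GCI for Rps27, and 1.32 and 1.38 CPM in FLOX+GCI against 1.72 and 1.33 CPM in FBN-ARO-KO+GCI for Rps12. The 16 pseudogene symbols that the count tables listed at an exact copy held few counts. In 13 of them no library had more than 10 counts, and the fullest, Gm15421 at a copy of Rpl22l1, had 205 to 264 counts per library.

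Per kb of mRNA, the most abundant large subunit members were Rplp1, Rpl4 and Rpl8, with mean levels of 384, 310 and 306 CPM per kb in FLOX+GCI against 300.1, 297 and 258 CPM per kb in FBN-ARO-KO+GCI. Among the most abundant small subunit members were Rps15 and Rps3, with 281 and 159 CPM per kb in FLOX+GCI against 249 and 147 CPM per kb in FBN-ARO-KO+GCI. The 10 fullest members of each library took between 64.3% and 65.5% of its ribosomal protein counts.

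Ribosomal protein transcripts made up slightly less of the FBN-ARO-KO+GCI libraries. Their summed level, scaled by TMM (edgeR's library scaling), was 3013 and 3025 CPM in FLOX+GCI against 2807 and 2689 CPM in FBN-ARO-KO+GCI, and the genotypes did not overlap. This was a ratio of 0.910 and a log2 difference of −0.14, against an SD between replicates of 0.0040 in FLOX+GCI and 0.044 in FBN-ARO-KO+GCI (n = 2 each), with an exact two-sided permutation p = 0.33, the smallest that 2 libraries against 2 can give. Large subunit genes summed to 1765 and 1747 CPM in FLOX+GCI against 1614 and 1565 CPM in FBN-ARO-KO+GCI, and small subunit genes to 1247 and 1277 CPM against 1193 and 1124 CPM. The large to small subunit ratio was 1.42 and 1.37 in FLOX+GCI against 1.35 and 1.39 in FBN-ARO-KO+GCI, so the genotypes overlapped (log2 difference −0.02, exact permutation p = 0.667). The sign of that small difference turned when FLOX+GCI replicate 1 (0.0055) or FBN-ARO-KO+GCI replicate 1 (0.0020) was left out.

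**Figure D2:**
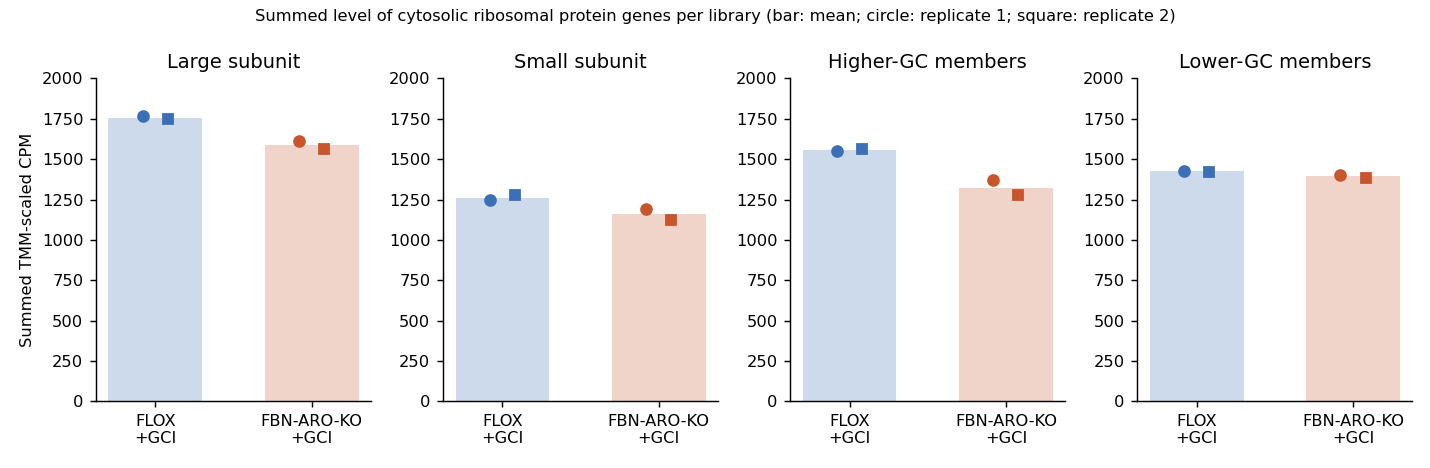
Summed TMM-scaled CPM of the large subunit genes, the small subunit genes, and the members with higher and with lower GC content in the mRNA, with blue for FLOX+GCI and orange for FBN-ARO-KO+GCI, bars for the mean and points for the 2 libraries. Both subunits and the higher-GC members lie lower in both FBN-ARO-KO+GCI libraries, and the lower-GC members differ least, from 1430 and 1423 CPM to 1403 and 1385 CPM.

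No single member passed the adjusted threshold in the comparison of FBN-ARO-KO+GCI with FLOX+GCI (edgeR quasi-likelihood test, Benjamini-Hochberg over 14527 genes, smallest adjusted p of a member 0.238), where 2 genes of all those tested did (0.0138%). Of the 69 members tested, 13 had an unadjusted p under 0.05, 12 lower and 1 higher in FBN-ARO-KO+GCI, against a background of 16.5% of all genes tested (7.82% lower, 8.72% higher). The count was 3 of 70 members when FBN-ARO-KO+GCI replicate 2 was left out, where 5.64% of all genes had such a p. The fitted change was below 0 in 47 of the 69 members (68.1%, against 51.3% of all genes). The median log2 fold change was −0.15 over the members and −0.01 over all genes. The 2 libraries of one genotype lay entirely above or below those of the other in 44 members, 35 of them lower and 9 higher in FBN-ARO-KO+GCI, which is 63.8% of members against a background of 51.8% (25.8% lower, 25.9% higher). The median was −0.13 in the 44 large subunit genes, of which 8 had an unadjusted p under 0.05 on the lower side and 0 on the higher. It was −0.16 in the 25 small subunit genes, with 4 lower and 1 higher.

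**Figure D3:**
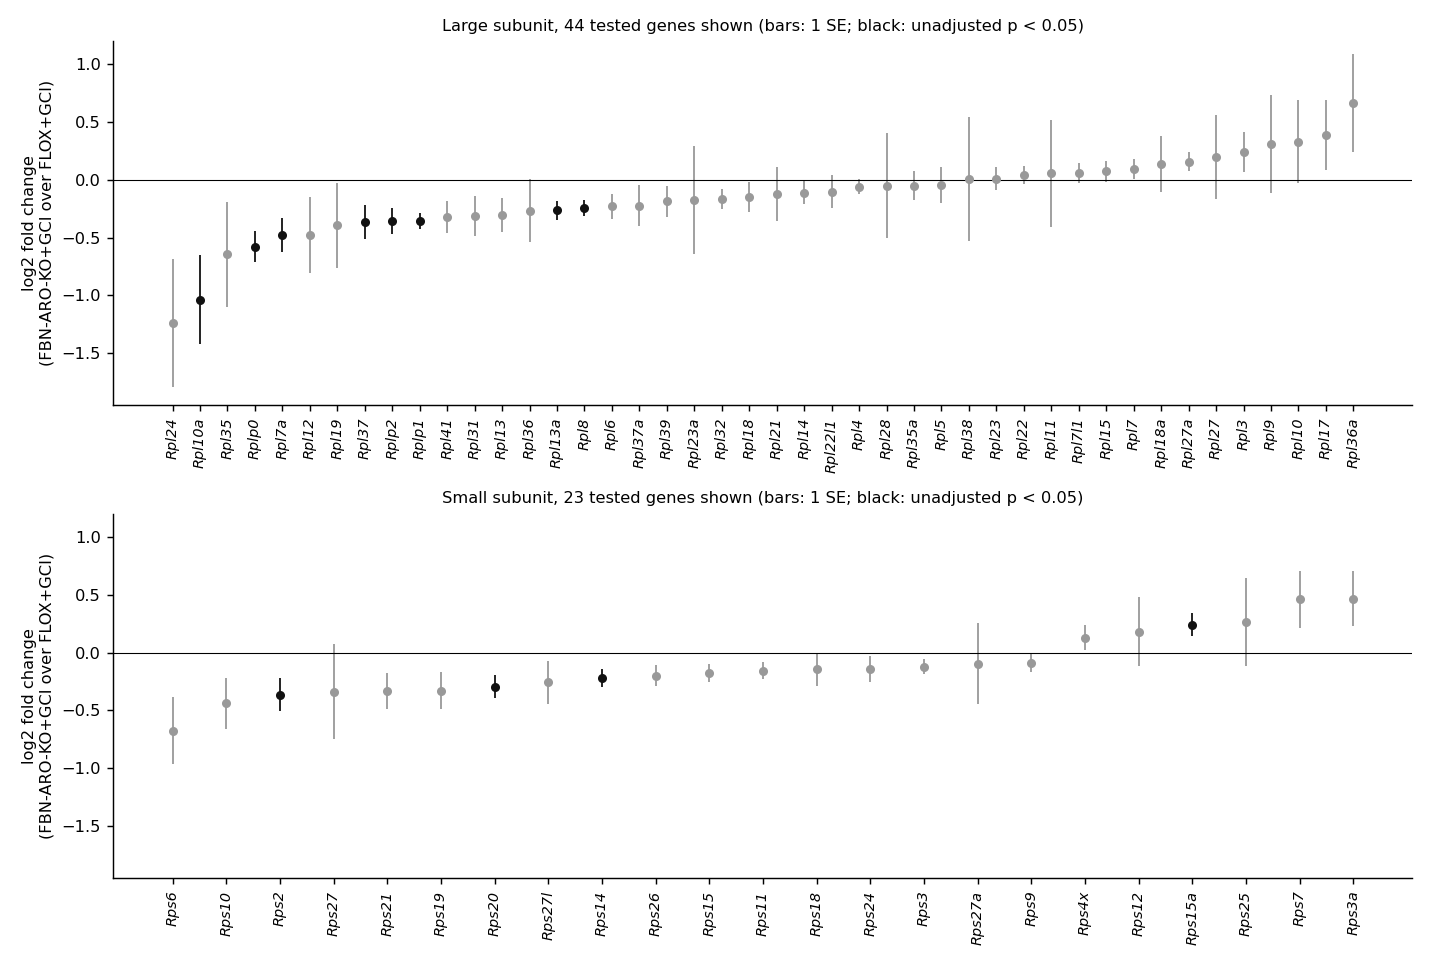
Log2 fold change of FBN-ARO-KO+GCI over FLOX+GCI (y axis) for tested members, ordered by value, with 44 large subunit genes above and 23 of the 25 small subunit genes below (2 are not shown). Bars are 1 SE, and the 12 black points are those shown of the 13 members with an unadjusted p under 0.05, of which only Rps15a lies above 0.

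The genes of the stalk held 3 of the 4 smallest unadjusted p-values among the members. Rplp0, the scaffold of the stalk, had 64.7 and 48.4 CPM in FLOX+GCI against 38.7 and 37.0 CPM in FBN-ARO-KO+GCI. The FLOX+GCI libraries differed from each other, yet both lay above both FBN-ARO-KO+GCI libraries, with a log2 fold change of −0.58 ± 0.14 (SE, n = 2 per group, edgeR quasi-likelihood adjusted p = 0.238). Leaving out 1 library at a time gave −0.77 to −0.35. Rplp1, one of the acidic proteins that extend from it, had 188 and 193 CPM in FLOX+GCI against 153 and 144 CPM in FBN-ARO-KO+GCI (log2 fold change −0.36 ± 0.07, edgeR adjusted p = 0.238). Its partner Rplp2 had 19.3 and 18.9 CPM in FLOX+GCI against 15.1 and 14.7 CPM in FBN-ARO-KO+GCI, a change of −0.36 ± 0.11 (edgeR adjusted p = 0.245). In each of these genes the replicates of FBN-ARO-KO+GCI lay below those of FLOX+GCI, as in 25.8% of all genes tested. A small p-value goes with such separation, so it is no added evidence of a change. Together the 3 stalk genes summed to 272 and 260 CPM in FLOX+GCI against 207 and 196 CPM in FBN-ARO-KO+GCI. This was a ratio of 0.757 (exact permutation p = 0.33). With DESeq2 in place of edgeR, the adjusted p was 0.00996 for Rplp0 and 0.00974 for Rplp1, and no other member passed. Among all 14527 genes tested, 285 passed with DESeq2, against 2 with edgeR. With the offset for GC content and length (values for all members follow) the log2 fold change was −0.08 for Rplp1, −0.11 for Rplp2 and −0.46 for Rplp0. DESeq2 gave an adjusted p for 20 of the 69 members only, since it leaves genes of lower count out of the adjustment.

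Rpl8, a protein of the core of the large subunit, was the other member among the 4 smallest unadjusted p-values. It had 259 and 268 CPM in FLOX+GCI against 225 and 220 CPM in FBN-ARO-KO+GCI, with no overlap and a log2 fold change of −0.24 ± 0.07 (edgeR adjusted p = 0.238). Rpl4, the member with the most counts, had 440 and 442 CPM in FLOX+GCI against 425 and 421 CPM in FBN-ARO-KO+GCI (−0.06 ± 0.07, edgeR adjusted p = 0.655). Among the abundant small subunit genes, Rps3, which lines the entry of the mRNA channel, had 307 and 300.4 CPM in FLOX+GCI against 286 and 273 CPM in FBN-ARO-KO+GCI (−0.12 ± 0.07, edgeR adjusted p = 0.399). Rps15 had 134 and 146 CPM in FLOX+GCI against 128 and 121 CPM in FBN-ARO-KO+GCI (−0.17 ± 0.08, edgeR adjusted p = 0.319). None of these 4 genes overlapped between genotypes, and none passed the adjusted threshold. Among all genes tested, 51.8% did not overlap.

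**Figure D4:**
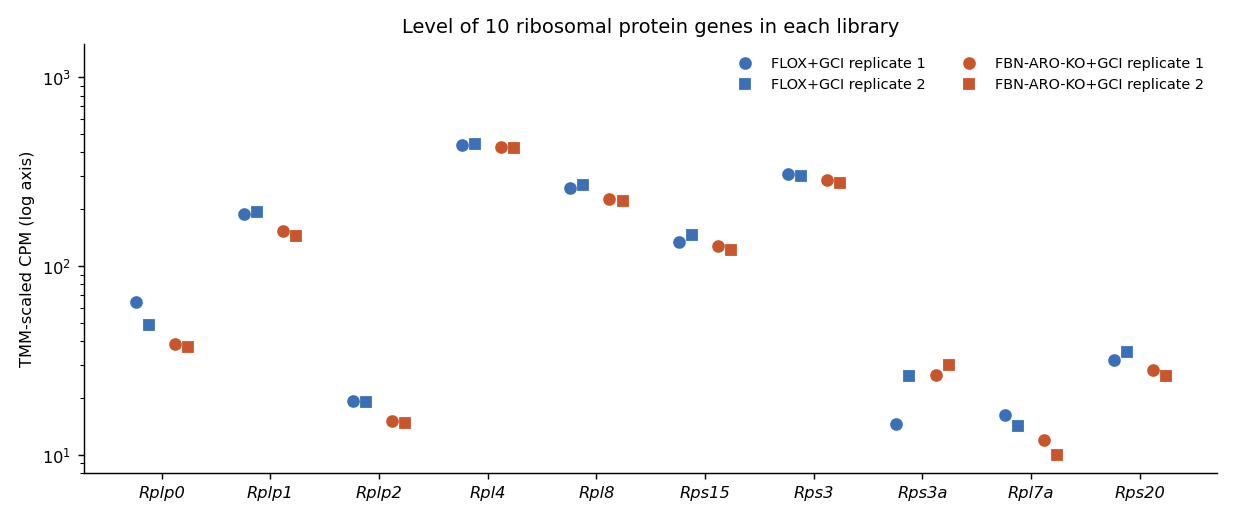
TMM-scaled CPM (y axis, log scale) of 10 members in each library, with blue for FLOX+GCI and orange for FBN-ARO-KO+GCI, circles for replicate 1 and squares for replicate 2. In 9 genes both FBN-ARO-KO+GCI libraries lie below both FLOX+GCI libraries, and in Rps3a they lie above, next to FLOX+GCI replicate 2.

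Other members with an unadjusted p under 0.05 were picked out after their values were seen. On the lower side these were Rpl7a, Rpl10a, Rpl13a and Rpl37 of the large subunit and Rps2, Rps14 and Rps20 of the small subunit, with log2 fold changes from −1.04 in Rpl10a to −0.22 in Rps14. Rps15a was the member on the higher side, with 95.6 and 79.7 CPM in FLOX+GCI against 105 and 103 CPM in FBN-ARO-KO+GCI (log2 fold change 0.24 ± 0.10, edgeR adjusted p = 0.284).

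The largest fold changes came mostly from members with few counts. Rpl24, of the large subunit, had 13 and 10 counts in FLOX+GCI against 5 and 7 counts in FBN-ARO-KO+GCI (log2 fold change −1.24 ± 0.55, edgeR adjusted p = 0.314). Rpl10a, which lies near the exit of tRNAs, had 26 and 31 counts in FLOX+GCI against 22 and 13 counts in the deeper FBN-ARO-KO+GCI libraries (−1.04 ± 0.38, edgeR adjusted p = 0.265). Rpl35, at the exit of the peptide tunnel, had 21 and 15 counts in FLOX+GCI against 19 and 10 counts in FBN-ARO-KO+GCI (−0.64 ± 0.45, edgeR adjusted p = 0.480). On the other side, Rpl36a had 9 and 11 counts in FLOX+GCI against 20 and 20 counts in FBN-ARO-KO+GCI (0.67 ± 0.43, edgeR adjusted p = 0.443). Rps7 had 54 and 57 counts in FLOX+GCI against 88 and 103 counts in FBN-ARO-KO+GCI (0.46 ± 0.25, edgeR adjusted p = 0.381). Rpl17, with exact coding copies at 58 other places, had 29 and 25 counts in FLOX+GCI against 50 and 39 counts in FBN-ARO-KO+GCI (0.39 ± 0.30, edgeR adjusted p = 0.527). After scaling, none of these 6 genes overlapped between genotypes. They were picked as extremes of fold change, which favors such separation, so it is no added evidence of a change. Among all genes tested, 51.8% did not overlap either. A gene on the opposite strand overlaps 13 members, Rpl24, Rpl35 and Rpl5 among them, and the use of strand in the counting is not stated. Rps3a was the exception with many counts, at 14.6 and 26.1 CPM in FLOX+GCI against 26.3 and 30.0 CPM in FBN-ARO-KO+GCI (0.47 ± 0.24, edgeR adjusted p = 0.362). FLOX+GCI replicate 1 was the low library, and the fitted change was between 0.11 and 0.95 when 1 library was left out and lowest without that library.

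Rps6, the small subunit protein phosphorylated by S6 kinases, had 4.39 and 3.16 CPM in FLOX+GCI against 2.84 and 1.88 CPM in FBN-ARO-KO+GCI. The genotypes did not overlap, and the log2 fold change was −0.67 ± 0.29 (edgeR adjusted p = 0.302). It had 55 to 110 counts per library, and none of its coding windows was unique. Rpl5 and Rpl11, which bind 5S RNA and can hold Mdm2 when ribosome assembly is disturbed, overlapped between genotypes. Rpl5 had 23.9 and 17.6 CPM in FLOX+GCI against 19.7 and 20.6 CPM in FBN-ARO-KO+GCI (−0.04 ± 0.15, edgeR adjusted p = 0.909). Rpl11 had 1.32 and 0.527 CPM in FLOX+GCI against 0.965 and 0.956 CPM in FBN-ARO-KO+GCI (0.06 ± 0.46, edgeR adjusted p = 0.960).

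Several members have a paralog under a name of the same kind, and most paralogs of restricted tissue use were close to 0. Rpl3l, known from heart and skeletal muscle, had 2 to 7 counts per library, and its whole mRNA was free of exact copies, while Rpl3 had 22.9 and 16.4 CPM in FLOX+GCI against 25.1 and 21.4 CPM in FBN-ARO-KO+GCI (0.24 ± 0.17, edgeR adjusted p = 0.484). Rpl10l and Rpl39l, known from testis, had 0 to 1 and 1 to 4 counts per library with 87.6% and 100% of coding windows unique. Their parents were also affected by copies, with 17 to 37 counts for Rpl10 and 316 to 375 counts for Rpl39. Rpl7l1 was counted at 42.5 and 44.4 CPM in FLOX+GCI against 46.9 and 43.7 CPM in FBN-ARO-KO+GCI and Rpl7 at 42.9 and 47.5 CPM against 48.4 and 48.2 CPM. Rpl22 had 100.6 and 98.3 CPM in FLOX+GCI against 98.1 and 107 CPM in FBN-ARO-KO+GCI, and Rpl22l1 had 16.9 and 15.5 CPM and 13.5 and 16.7 CPM. Rps27l had 5.43 and 6.37 CPM in FLOX+GCI against 4.56 and 5.33 CPM in FBN-ARO-KO+GCI. Per kb of mRNA its mean was 11.8 CPM in FLOX+GCI, against 2.34 CPM per kb for Rps27, which had no unique coding window. Rps4x, the X-linked small subunit gene, had 33.6 and 39.6 CPM in FLOX+GCI against 38.8 and 41.4 CPM in FBN-ARO-KO+GCI (0.13 ± 0.11, edgeR adjusted p = 0.542). Of these paralog pairs, the smallest adjusted p was 0.484, for Rpl3, and levels within a pair cannot be ranked where the copies differ.

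The difference between genotypes moved with base composition. Across all genes, Spearman's rho between the GC content of the mRNA and how far a library lay from the mean of each gene was 0.37 and 0.44 in FLOX+GCI but −0.12 and −0.60 in FBN-ARO-KO+GCI, and across the members it was 0.20 and 0.36 against −0.10 and −0.44. Members of higher GC content (at least the median of 51.25%) summed to 1548 and 1562 CPM in FLOX+GCI against 1371 and 1278 CPM in FBN-ARO-KO+GCI, with a median log2 fold change of −0.23 over 34 tested genes, 10 of them lower and 0 higher at an unadjusted p under 0.05 (29.4%). In the 34 tested members of lower GC content the median was −0.08, with 2 lower and 1 higher (8.82%). Among all genes, of any GC content, 16.5% had such a p, 7.82% lower and 8.72% higher. When a GC content and length offset was fitted to each library, the median over the members was −0.02 against 0.03 over all genes, and 36 members were lower and 33 higher (42.8% of all genes were lower). The summed level was then 2893 and 2884 CPM in FLOX+GCI against 2866 and 2862 CPM in FBN-ARO-KO+GCI, a ratio of 0.992. The offset fitted GC content and length together, so the part of either alone was not tested. The GC trend differed by genotype, and an effect of genotype cannot be told apart from one of library preparation here. With the offset, 4 members had an unadjusted p under 0.05 on the lower side (Rplp0, Rpl7a, Rps20 and Rpl41) and 3 on the higher, Rpl15 and Rpl27a among them, against a background of 11.4% of all genes (3.50% lower, 7.90% higher). Apart from Rplp0, these genes were picked out after their values were seen. The value of Rpl8 with the offset was 0.03. Rpl41 had no mRNA in the annotation and so received no offset. Rps20 had an annotated mRNA of 3706 bases with 41.3% GC, against a median of 768 bases over the tested members. Its log2 fold change went from −0.29 to −0.46 with the offset.

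**Figure D5:**
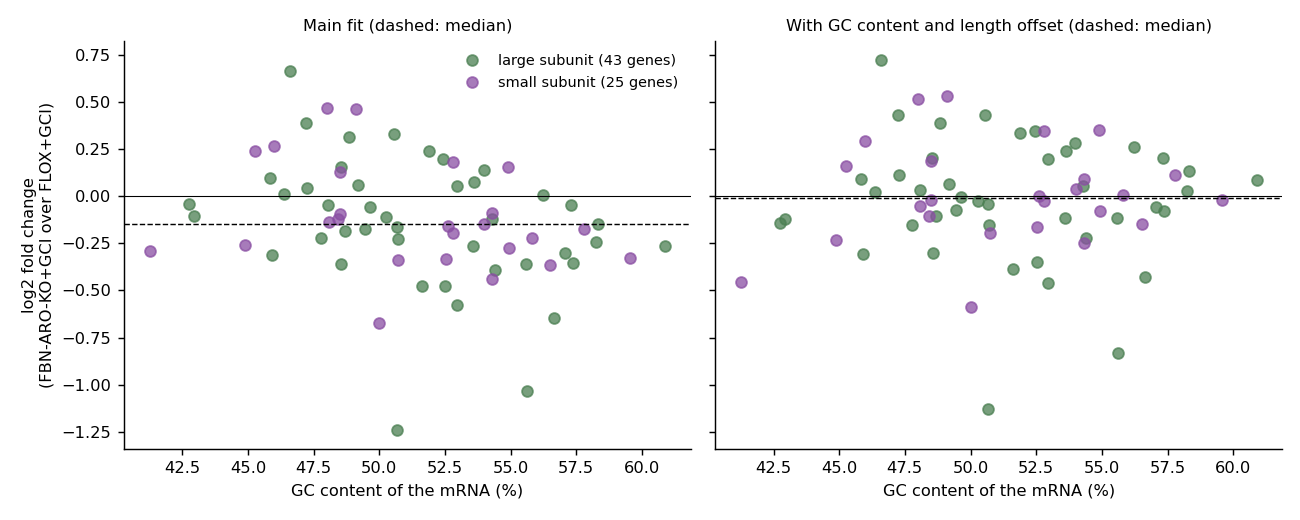
Log2 fold change of FBN-ARO-KO+GCI over FLOX+GCI (y axis) against GC content of the mRNA (x axis, percent) for the 68 tested members with an annotated mRNA, without (left) and with (right) the GC content and length offset, green for the large and purple for the small subunit. Spearman's rho across these genes is −0.39 on the left and −0.02 on the right. Without the offset it is −0.55 across 13869 tested genes, so the trend is not particular to the members.

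The comparison was also split by copies. In the 24 tested members with at least 50% of their windows unique over the whole mRNA, the median log2 fold change was −0.18, with 6 lower and 1 higher at an unadjusted p under 0.05. In the 44 tested members under 50% it was −0.13, with 6 lower and 0 higher. These were 29.2% and 13.6% of each set, against 16.5% of all genes (7.82% lower, 8.72% higher). The median SE was 0.09 in the first set and 0.20 in the second, so members with many copies were measured less precisely. Rps15a and Rps20, with long annotated mRNAs of 3721 and 3706 bases, fell in the first set. Only 15.7% and 14.8% of their coding windows were unique.

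Other genes of the translation machinery were described from lists. Of 5 ribosomal proteins with other names, all had a fitted change below 0 and 1 had an unadjusted p under 0.05, Gnb2l1, the scaffold protein RACK1 of the small subunit, with 215 and 233 CPM in FLOX+GCI against 203 and 189 CPM in FBN-ARO-KO+GCI (−0.19 ± 0.08, edgeR adjusted p = 0.283). The mitochondrial ribosome, whose proteins come from a separate set of nuclear genes, had a median of −0.07 over 74 tested genes, with 12 lower and 0 higher at an unadjusted p under 0.05 (16.2%, against 16.5% of all genes). Its leading genes were Mrps26, with 42.6 and 41.5 CPM in FLOX+GCI against 31.9 and 33.0 CPM in FBN-ARO-KO+GCI, and Mrps18b, with 7.98 and 6.86 CPM and 3.80 and 4.75 CPM. No gene of any of these lists had an adjusted p under 0.05. With the GC content and length offset the mitochondrial median was −0.003, with 5 lower and 2 higher at an unadjusted p under 0.05. Among all genes 3.50% were lower and 7.90% higher in that fit.

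Translation factors had a median log2 fold change of −0.01 over 49 genes, with 2 lower and 3 higher at an unadjusted p under 0.05. In each list of this paragraph the share of genes with such a p, at most 13.3%, was under the 16.5% of all genes. Eif6, which keeps free large subunits from joining, had 41.3 and 41.0 CPM in FLOX+GCI against 34.3 and 31.7 CPM in FBN-ARO-KO+GCI, and Eif4a2, an RNA helicase of initiation, had 498 and 481 CPM and 552 and 589 CPM. Other TOP mRNAs had a median of −0.06 over 30 genes, with 3 lower and 1 higher, led by Vim (−0.49 ± 0.12, edgeR adjusted p = 0.238) and Tpt1 (−0.58 ± 0.20, edgeR adjusted p = 0.252). Ribosome assembly factors had a median of 0.01 over 72 genes, with 3 lower and 1 higher. Heatr1, which acts in the synthesis of ribosomal RNA, had 21.4 and 21.7 CPM in FLOX+GCI against 27.8 and 28.7 CPM in FBN-ARO-KO+GCI, and Nhp2, of the H/ACA particles that modify that RNA, had 26.9 and 28.6 CPM and 21.6 and 22.7 CPM. RNA polymerase I genes had a median of −0.08 over 20 genes with 1 lower and 0 higher, led by the subunits Polr2f and Polr2e that it shares with the other RNA polymerases (−0.32 ± 0.11 and −0.22 ± 0.10). The mTOR and S6 kinase pathway had a median of 0.02 over 34 genes, with 2 lower and 2 higher. Its leading genes were Rps6ka4, a stress-activated kinase (54.2 and 52.3 CPM in FLOX+GCI, 38.2 and 35.8 CPM in FBN-ARO-KO+GCI), and Akt1s1, an inhibitor within the mTOR complex (34.0 and 37.0 CPM against 27.5 and 27.5 CPM).

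Most promoters of the members held a run of pyrimidines near the annotated start. Promoter sequence from RefSeq (GRCm38.p6) was matched by symbol for 61 members. A run of at least 8 C or T on the strand of the gene, within 30 bases before to 50 after the annotated start, was present in 49 of them (80.3%) and in 32.2% of 26964 other genes. Each stretch shown here covers 20 bases before and 10 after the annotated start, 5′ to 3′ on the strand of the gene, with its longest run of C or T in capitals, for Rpl7a and Rpl35, which held 2 of the 3 longest runs, and for Rpl4, the member with the most counts.
Rpl7a, chr2:26910787-26910816, plus strand: ccacaaTTCCCTCTTCTTTCTTTCTCCagc
Rpl35, chr2:39005122-39005151, minus strand: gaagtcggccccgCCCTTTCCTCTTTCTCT
Rpl4, chr9:64173367-64173396, plus strand: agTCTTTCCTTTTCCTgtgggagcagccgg
The runs were 21, 17 and 14 bases long in these stretches, and the log2 fold changes of the 3 genes ranged from −0.64 to −0.06. A run within the range searched need not begin the mRNA, and the one shown for Rpl4 lies wholly before the annotated start. A run of these letters is a description of the sequence, and the files hold no measure of translation.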

How the data were processed

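Total RNA of the hippocampus was sequenced as 50 nt single-end reads. The authors aligned them to mm9 with TopHat2 2.0.8b and deposited the unnormalized HTSeq counts of each gene symbol; the annotation release and the use of strand are not given in the sources used here. The 5 rows that name no gene were all left out. Among them, reads with more than 1 alignment numbered 65.7 and 67.0 per 100 counts on genes in FLOX+GCI against 62.0 and 63.7 in FBN-ARO-KO+GCI. Whether this difference bears on the levels of the members was not tested. Reads without a gene were 12.3% to 13.7% of reads aligned once, and ambiguous reads 0.411% to 0.446%.

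The counts were compared with edgeR 4.0.16 in R 4.3.3 (quasi-likelihood test, TMM, filterByExpr with a minimum count of 10, all 4 libraries, no covariate), with Benjamini-Hochberg adjustment over all genes tested, after the procedure was tested on simulated data. SE is the log2 fold change divided by the root of its F statistic. Alternatives were DESeq2 1.42.0, other scalings, filters, the likelihood ratio test, a replicate block, a natural spline offset for GC content and length (5 df), each library left out, and subsets by copies. Single values per library were compared by exact permutation. Member mRNAs (the shortest complete CCDS transcript of GENCODE M1, NCBIM37) were cut into 50-base windows, which were searched on both strands of the genome exactly and, with blastn 2.17.0 (word size 16), with up to 2 mismatches; copies within 5000 bases were merged.

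Genes named with values were those with an adjusted p under 0.05, the 4 highest and 4 lowest fold changes, the 3 most abundant per kb in each subunit, the 4 smallest p-values, the stalk genes, the paralog pairs, Rps6, Rpl5 and Rpl11, the 3 smallest unique shares and members without counts, and the 2 smallest p-values of each other list. The members and lists were chosen with earlier results of these data known. A few genes under this rule are not reported here.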

Additional observations from a re-analysis of the deposited data

How the results depend on the processing

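No member passed an adjusted p of 0.05 in the edgeR quasi-likelihood test (13 at an unadjusted p under 0.05), while 2 did with DESeq2 and 2 with the likelihood ratio test (Rplp0 and Rplp1 in both), and between 0 and 2 when 1 library was left out, the 2 being Rplp0 and Rps3a without FLOX+GCI replicate 2. With a replicate block 1 member passed (Rplp0, adjusted p = 0.0278) and 184 of all genes did, against 2 without the block, 285 with DESeq2, 294 with the likelihood ratio test and 0 to 193 with 1 library left out. The labels give same-numbered libraries nothing but the number in common. Their deviations from the group means correlated at 0.13 across all genes and 0.06 across the members, and with 2 pairs this does not settle whether they are paired. The count at an unadjusted p under 0.05 was 7 with the GC content and length offset, 3 among members with at least 90% unique windows, 7 among those with at least 50% (chosen after the data were seen), and 3 to 14 when 1 library was left out. The subsets have 4 and 24 tested members, and the fit with the offset has 69. Among all genes 11.4% had such a p with the offset, against 16.5% without it. The share over all genes also moved when 1 library was left out. The moves of these counts therefore cannot be read as particular to the members, and their cause was not tested. The median log2 fold change was −0.018 with the offset, −0.013 with the offset and the replicate block, and between −0.22 and −0.085 when 1 library was left out. The log2 difference of the large to small subunit ratio was reversed at 0.026 among members with at least 50% unique windows, was −0.14 among those with at least 90%, and ran from −0.044 to 0.0055 when 1 library was left out. The log2 difference of the summed level was −0.14, but −0.012 with the offset, and between −0.17 and −0.10 in the other alternatives run. Counting depth limited the members with no unique coding window, whose median SE was 0.36, and transcripts that differ only by copies could not be separated.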
